A study of Homo sapiens with 6 samples.

Results

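Genes of the G1/S transition and of DNA replication were followed in PC3 cells, an established human prostate carcinoma line, in which a GRK3 transgene was compared with a GFP transgene. GRK3 belongs to the kinases that desensitise G protein-coupled receptors after their activation, and the control transgene encodes green fluorescent protein (GFP). The set holds 44 genes of the 16922 named on the array, and was made by gene function: the D and E cyclins and their kinases, E2F factors, and the E2F target genes that license and copy DNA. All 44 have at least 1 probe, and their 58 probes were found by the gene symbol of the platform's annotation. Total RNA from 3 PC3-GRK3 and 3 PC3-GFP samples was hybridised to Illumina Ref8-v3 BeadChips, with cells grown in RPMI medium with serum and antibiotics. The labels used here name neither the promoter of the transgenes nor the origin of the cells as pools or clones, so the comparison is between these cell populations. They also do not say that replicates were grown separately, and a p-value then measures only the spread among the samples of a group, possibly a technical one.

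In G1, cyclin D with CDK4 or CDK6, followed by cyclin E with CDK2, phosphorylates the retinoblastoma protein and frees E2F factors to switch on genes for DNA synthesis. The origin recognition complex, CDC6 and CDT1 then load the MCM helicase on DNA, CDC45 and GINS complete it, and the polymerases copy the strands with the PCNA clamp. PC3 cells are known to grow without androgen, and genes of this kind are used in tumours as a measure of how many cells are cycling. In a mixed culture, fewer cells in S phase and less RNA of these genes per cell cannot be told apart.

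Promoters are shown because many of these genes are known E2F targets, and the E2F motif is the sequence these would share. Promoters of 300 bases, reaching from 250 bases before to 50 bases after a gene's start, were taken from RefSeq on GRCh38.p14 for 36 of the 44 genes. CCND1, CCND2, CCNE2, CDK2, MCM4, MCM5, RPA2 and RPA3 were not matched. Both strands were searched for TTTGGCGC, TTTCCCGC, TTTGCCGC and TTTCGCGC. At least 1 of these occurred in a promoter of 19 of the 36 members, 52.8%, and in 3.99% of the 27305 genes in the promoter table. The letters CCAAT and GGGCGG were found in 58.3% and 80.6% of the members and in 39.7% and 48.3% of all genes, and the median GC content was 68.3% in the members' promoters and 58.7% in all. Of the tested members with an E2F match, 16 of 19 had a negative difference (median -0.0753 on the log2 scale, GRK3 minus GFP), and of those without a match 12 of 17 (median -0.0153), while 50.7% of all tested named genes were negative. With median scaling, applied to this split after seeing the data, the counts were 12 of 19 (median -0.0556) and 8 of 17 (median 0.0073). The following promoters are printed 5′ to 3′ with the matches in capitals, those of E2F1 and UHRF1, which had the most negative differences among members with a match, and of PCNA and MCM6, which had the most positive.
They lie at chr20:33686336-33686635, minus strand (E2F1), chr19:4909251-4909550, plus strand (UHRF1), chr20:5126573-5126872, minus strand (PCNA) and chr2:135876394-135876693, minus strand (MCM6).
E2F1: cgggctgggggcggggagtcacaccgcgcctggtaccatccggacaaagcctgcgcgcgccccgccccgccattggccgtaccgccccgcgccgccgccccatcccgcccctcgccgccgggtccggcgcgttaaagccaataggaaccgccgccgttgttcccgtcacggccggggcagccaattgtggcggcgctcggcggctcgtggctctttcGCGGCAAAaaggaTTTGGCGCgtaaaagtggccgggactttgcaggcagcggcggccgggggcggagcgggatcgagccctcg
UHRF1: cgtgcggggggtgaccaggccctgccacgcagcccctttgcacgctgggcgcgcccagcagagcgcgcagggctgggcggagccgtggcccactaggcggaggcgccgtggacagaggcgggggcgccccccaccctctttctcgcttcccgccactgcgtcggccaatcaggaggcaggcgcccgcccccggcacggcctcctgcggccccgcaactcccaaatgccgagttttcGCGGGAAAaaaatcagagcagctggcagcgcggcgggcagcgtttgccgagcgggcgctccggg
PCNA: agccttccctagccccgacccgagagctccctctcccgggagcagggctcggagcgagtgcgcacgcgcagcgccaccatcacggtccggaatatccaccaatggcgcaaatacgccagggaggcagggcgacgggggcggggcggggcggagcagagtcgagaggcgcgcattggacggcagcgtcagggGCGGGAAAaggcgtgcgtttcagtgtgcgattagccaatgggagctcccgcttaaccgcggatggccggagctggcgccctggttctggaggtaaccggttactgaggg
MCM6: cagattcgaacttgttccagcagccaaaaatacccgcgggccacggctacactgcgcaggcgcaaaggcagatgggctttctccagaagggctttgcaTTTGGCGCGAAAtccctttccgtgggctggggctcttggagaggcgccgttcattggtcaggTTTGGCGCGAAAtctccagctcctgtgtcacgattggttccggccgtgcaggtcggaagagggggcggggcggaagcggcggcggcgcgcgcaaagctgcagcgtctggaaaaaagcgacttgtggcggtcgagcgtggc

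In MCM6 the letters TTTGGCGC overlap the reverse complement of TTTCGCGC at both places, so that 4 matches lie in 2 stretches, the first bases of the TTTGGCGC matches at -152 and -90 from the start. E2F1 has matches at -33 and -20, PCNA at -59, and the printed UHRF1 promoter at -14. A match is only a description of the letters in this window, and similar letters stand before genes with differences of either sign.

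None of the members passed the test between GRK3 and GFP cells, and most differences were small. Values are normalised intensities on the log2 scale, tested probe by probe with limma on the 14130 probes with a detection p under 0.05 on 3 or more arrays, and a probe passed at a Benjamini-Hochberg adjusted p under 0.05. Of the members' 58 probes 55 were tested, covering 42 genes, and each of the 55 was detected on all 6 arrays. Limma called 0 of the 55, against 81 of 14130 over the array (0.573%). At an unadjusted p under 0.05 there were 3 of 55 (5.45%), for E2F1, RRM2 and UHRF1, against 1636 over the array (11.6%). All 3 were lower in GRK3 cells. Of the 1636 over the array 769 were lower, which is 5.44% of all tested probes. The groups did not overlap for 10 of the 55 (18.2%), against 16.4% of all tested probes. By direction, GRK3 arrays were wholly below GFP arrays for 9 of the 55 (16.4%), against 8.38% of all tested probes, and wholly above for 1 of the 55 (1.82%), against 8% of all. With median scaling, an alternative chosen for this count after seeing the data, these were 6 below (10.9%, against 7.57% of all) and 2 above (3.64%, against 8.96% of all).

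The 95% intervals give, gene by gene, the range of differences left by the spread among these samples. As with the p-values, that spread is possibly a technical one. For 39 of the 42 genes the interval of the GRK3 minus GFP difference lay within a 1.5-fold change either way, and for all 42 it lay within 2-fold. Over the 42 genes the lowest lower bound was -0.76, for RRM2, and the highest upper bound was 0.35, for RPA3. A gene with several probes is represented by its tested probe with the highest mean. The median standard error was 0.0947, against 0.104 over all 10586 tested named genes.

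**Figure D1:**
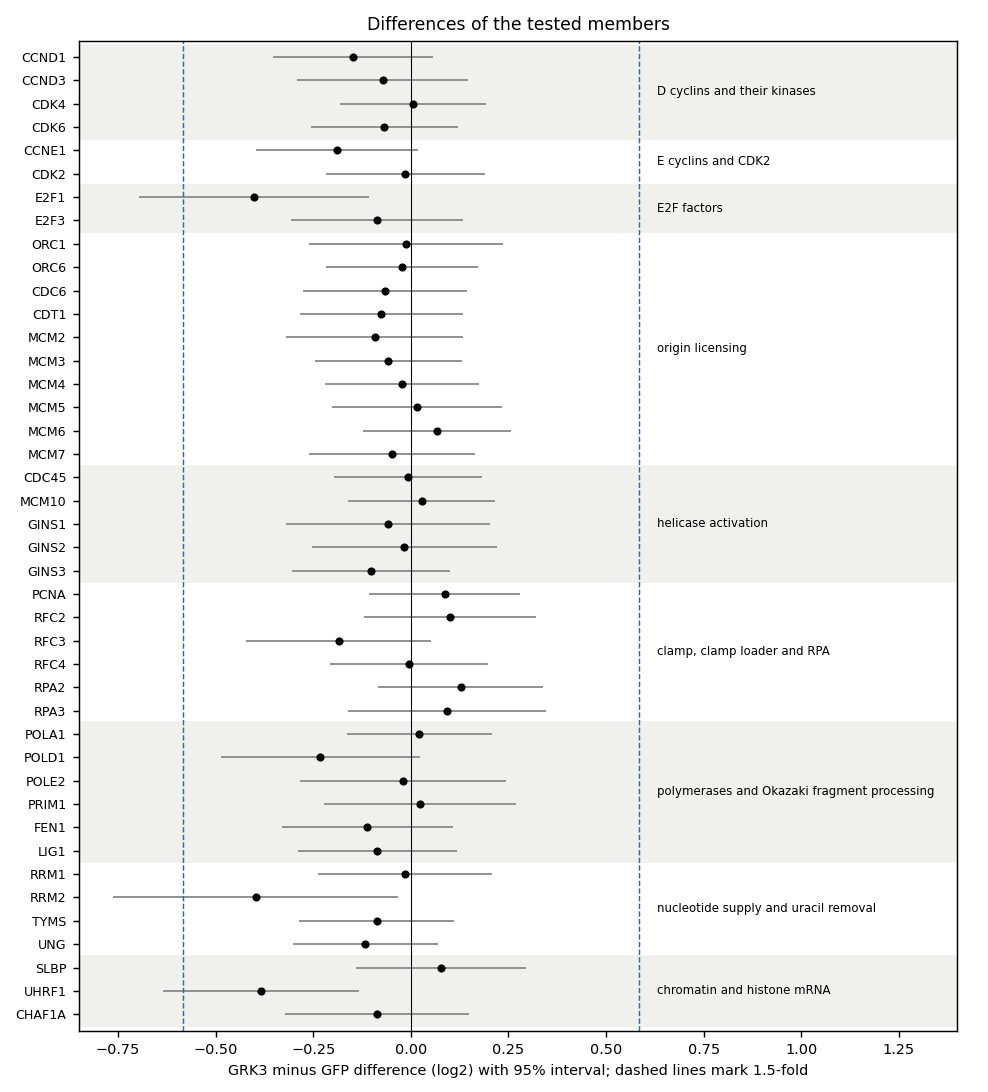
GRK3 minus GFP differences on the log2 scale (points) with 95% intervals from limma (lines) for the 42 tested member genes, grouped by role; dashed lines mark a 1.5-fold change. The intervals of E2F1, RRM2 and UHRF1 reach past the lower dashed line, and those of the other 39 genes lie between the lines.

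More members had a negative than a positive difference, but this split depended on the scaling and on single arrays. Of the 42 genes, 31 were on the negative side and 11 on the positive, with a median of -0.0525 on the log2 scale, while the median over all tested named genes was -0.0024 and 50.7% of them were negative. With median scaling in place of quantile normalisation the split was 21 and 21 and the median -0.0055, and without GFP replicate 3 it was 24 and 18 with a median of -0.0102. At the other end, the split was 33 and 9 without GFP replicate 1, with a median of -0.0622. It was also 33 and 9 with the authors' value table, with a median of -0.0384, against -0.0293 over all tested probes. The median size of a difference, ignoring its sign, was 0.0737 in the members and 0.0914 in all tested named genes. The members were also brighter, with a median level of 11.79 against 9.29 in all tested named genes. Of the 2815 tested named genes whose level lay in the members' middle range, from 10.44 to 12.96, 51.8% were negative with a median of -0.0048, and of the 20 members among them 14 were negative. Within that range the median size of a difference was 0.0823 in the 20 members, against 0.0768 in the 2815 genes.

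**Figure D2:**
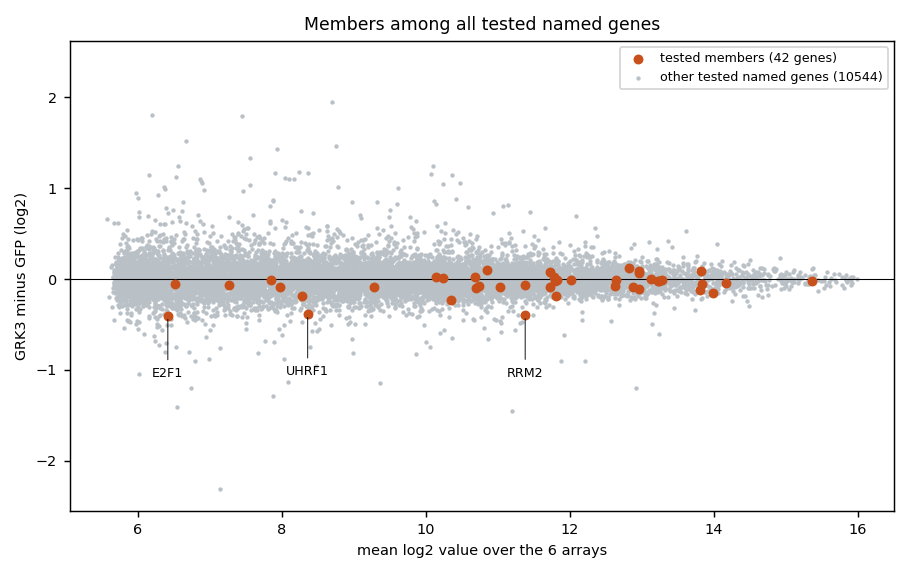
Each point is a tested named gene, with its mean log2 value over the 6 arrays on the x axis and its GRK3 minus GFP difference on the y axis; the 42 members are orange and the other 10544 genes grey. The members lie close to 0, from -0.40 for E2F1 to 0.13 for RPA2.

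The members' highest values were spread unevenly over the arrays, and GFP replicate 3 held the fewest of the lowest. Of the 42 genes, GRK3 replicates 1, 2 and 3 held the highest value of 8, 3 and 2. GFP replicates 1, 2 and 3 held the highest value of 8, 7 and 14. The lowest value was held for 8, 8 and 10 genes by the GRK3 arrays, and for 7, 7 and 2 by the GFP arrays. Over all tested named genes, GFP replicate 3 held the highest value of 16.7% and GRK3 replicate 3 of 19.5%. No such share was taken for the lowest values. GRK3 replicate 1 was above the other GRK3 arrays for PRIM1 and POLE2, at 12.01 and 11.98, against 11.67 and 11.64 on replicate 2 and 11.72 and 11.75 on replicate 3. The deviation of each gene from its mean over the 6 arrays had a median of 0.0105, -0.0285 and -0.0254 on the GRK3 arrays and of 0.009, 0.0156 and 0.0498 on the GFP arrays. Mean signal per array before normalisation ran from 1171 on GRK3 replicate 3 to 1387 on GFP replicate 3, and 56.2% to 58.6% of probes were detected. The part of array brightness in the members' differences was not tested. The single GRK3 probe was detected on 0 of 6 arrays (detection p from 0.104 to 0.262) and does not check the labels. Of the listed marker genes, 5 of 5 epithelial ones were tested, as were 3 of 6 of fibroblasts, 1 of 4 of endothelium and 2 of 5 of leukocytes, and 0 of the 3 named luminal prostate genes (KLK2, KLK3 and TMPRSS2). None of the tested markers passed with limma. At an unadjusted p under 0.05, LUM (difference 0.29) and PDGFRA (0.25) of the fibroblast list were higher in GRK3 cells, and 1 of 2 tested CD68 probes, of the leukocyte list, was lower (-0.65), with 0.18 at the other. The LUM probe stood close to background, with detection p-values from 0.0259 to 0.0388. The part of other cells in the members' differences was not tested.

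**Figure D3:**
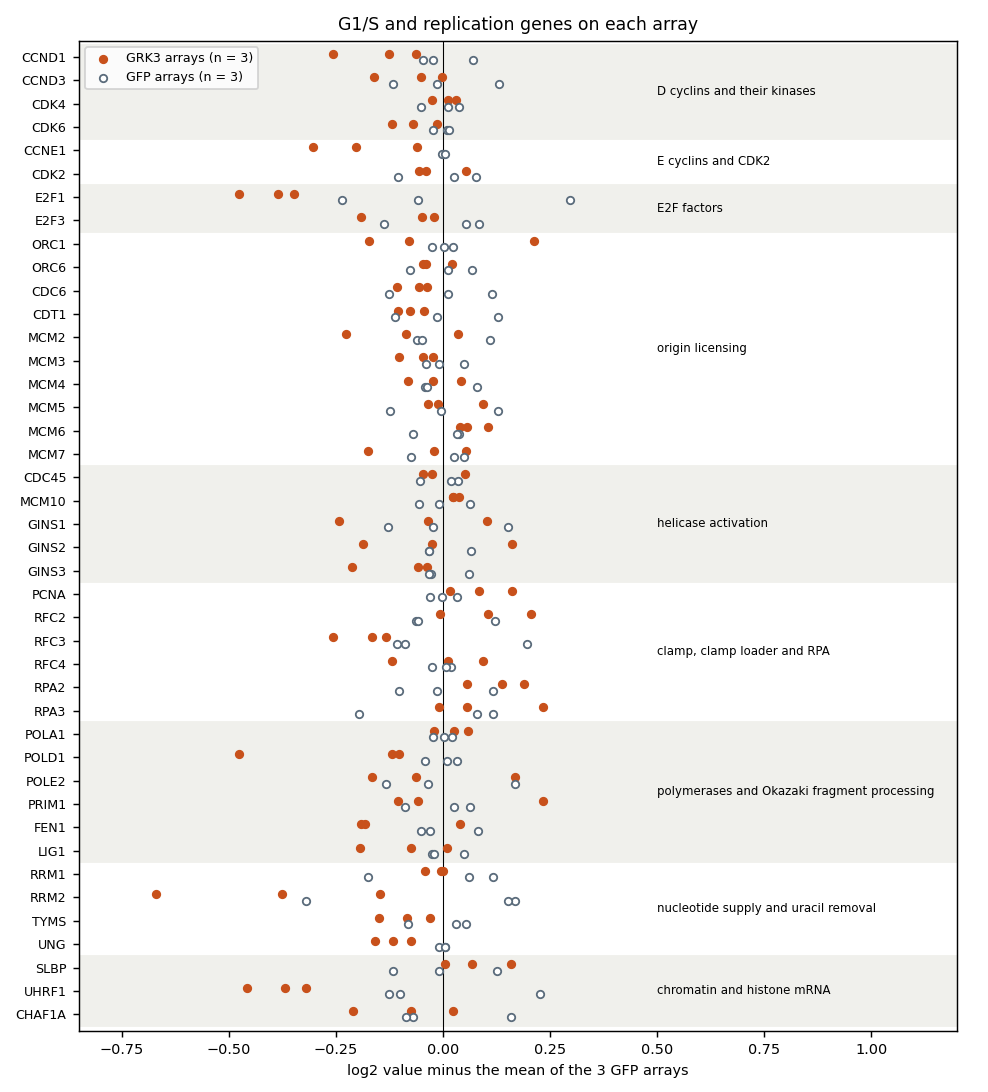
Log2 value of each tested member on each array minus the mean of the 3 GFP arrays (x axis), by gene and role (y axis), with GRK3 arrays as filled and GFP arrays as open points. The points of the groups overlap for 33 of the 42 genes, and the GRK3 points lie wholly below the GFP points for 8 (19%) and above for 1, MCM6 (2.38%), against 7.99% and 8.62% of all tested named genes.

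Among the D cyclins, which carry growth signals into the cycle, CCND1 was lower on all 3 GRK3 arrays, by an amount that did not pass. CCND1 (chr11:69641156-69654474 on GRCh38.p14) had log2 values of 13.81, 13.94 and 13.999 on the GRK3 arrays, against 14.13, 14.02 and 14.04 on the GFP arrays. Its lowest GFP value stood just above its highest GRK3 value. The difference was -0.15 ± 0.092 (SE), with a 95% interval from -0.35 to 0.06 and a limma adjusted p of 0.609. It was -0.0918 without GRK3 replicate 1 and -0.0779 with median scaling. CCND3 had values of 12.50, 12.61 and 12.66 on the GRK3 arrays and 12.79, 12.55 and 12.65 on the GFP arrays, which overlapped. The difference of CCND3 was -0.072, with a limma adjusted p of 0.85. CCND2 was not above background on any array and was not tested.

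The D-type kinases differed little. CDK4 values were 13.15, 13.13 and 13.09 on the GRK3 arrays and 13.16, 13.13 and 13.07 on the GFP arrays, all within 0.1. It had a difference of 0.0048 with a 95% interval from -0.18 to 0.19. CDK6, which pairs with the same cyclins, had values of 11.29, 11.34 and 11.40 on the GRK3 arrays and 11.42, 11.43 and 11.39 on the GFP arrays. The GFP values of CDK6 lay within 0.04 of each other and overlapped the highest GRK3 value, and its difference was -0.068 (95% interval from -0.26 to 0.12).

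Cyclin E1, the partner of CDK2 at the start of S phase, was lower on each GRK3 array than on any GFP array, though its adjusted p was 0.486 with limma. The detected CCNE1 probe had values of 8.31, 8.07 and 8.17 on the GRK3 arrays, against 8.37, 8.37 and 8.37 on the GFP arrays. The GFP arrays were nearly identical, with an SD of 0.0038, and the spread lay among the GRK3 arrays, with an SD of 0.12 (n = 3 each). The difference was -0.19 ± 0.093 (SE), and over the arrays left out in turn it ran from -0.25 to -0.13. The other CCNE1 probe was not above background on any array. CCNE2, the second E cyclin, had log2 values of 5.84, 5.74 and 5.75 on the GRK3 arrays and 5.33, 5.54 and 5.55 on the GFP arrays. Only 1 of the 3 GRK3 arrays and 0 of the 3 GFP arrays detected CCNE2, so no fold or test is given.

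CDK2 was read by 2 probes that gave different sizes. At the probe used for the gene it had values of 11.88, 11.79 and 11.77 on the GRK3 arrays and 11.72, 11.85 and 11.90 on the GFP arrays, a difference of -0.014 with a 95% interval from -0.22 to 0.19. At the other probe the values were 9.27, 9.19 and 9.16 on the GRK3 arrays, against 9.40, 9.32 and 9.47 on the GFP arrays. There the groups did not overlap, and the difference was -0.19 with a 95% interval from -0.39 to 0.01 (limma adjusted p = 0.453). Neither probe passed.

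E2F1, the factor that drives much of the S-phase programme, is itself an E2F target. In the values as reported it had the most negative difference of the 42 tested genes. Its gene lies at chr20:33675477-33686385 on GRCh38.p14. E2F1 had log2 values of 6.23, 6.27 and 6.14 on the GRK3 arrays, against 6.91, 6.56 and 6.38 on the GFP arrays. Every GRK3 value was below every GFP value, and the GFP arrays were spread more widely (SD 0.27) than the GRK3 arrays (SD 0.07, n = 3 each). The difference was -0.40 ± 0.13 (SE), 1.32-fold lower, with a limma adjusted p of 0.263. The probe stood close to background: its signals before normalisation were 132.7, 142.5 and 118.8 on the GRK3 arrays, against 166.2, 160.9 and 150.5 on the GFP arrays, with detection p-values from 0.0129 to 0.0324. Without GFP replicate 1 the difference was -0.26 (limma adjusted p = 0.376), and over all alternatives the adjusted p was 0.208 to 0.558, the highest without GRK3 replicate 3. The E2F1 difference was -0.25 without background correction, -0.29 with an offset of 50 and -0.26 with the authors' value table. In these settings, in the same order, RRM2 (-0.39, -0.39 and -0.41) and UHRF1 (-0.33, -0.35 and -0.36) were more negative than E2F1.

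E2F3, another activating factor, had values of 11.71, 11.74 and 11.57 on the GRK3 arrays and 11.63, 11.85 and 11.82 on the GFP arrays. These overlapped, and the difference was -0.088 with a 95% interval from -0.31 to 0.13.

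The genes that license origins had differences close to 0. All 10 were tested, 8 were negative and 2 positive, from -0.0924 for MCM2 to 0.0668 for MCM6, with a median of -0.035, and 0 passed with limma, where the lowest adjusted p was 0.807. With median scaling ORC6, MCM3, MCM4 and MCM7 turned positive. ORC1, the largest subunit of the origin recognition complex, had values of 8.07, 7.69 and 7.78 on the GRK3 arrays and 7.83, 7.86 and 7.88 on the GFP arrays. GRK3 replicate 1 was highest and GRK3 replicate 2 lowest of all 6 arrays, with the GFP arrays close together between them, and the difference was -0.013 (95% interval from -0.26 to 0.23). ORC6, another subunit of that complex, differed by -0.022. CDC6 and CDT1, which load the helicase, differed by -0.067 and -0.075, and their 95% intervals ran from -0.28 to 0.14 and from -0.28 to 0.13.

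The 6 subunits of the MCM2-7 helicase, the ring that unwinds DNA, had differences of both signs. MCM6 was the 1 tested member with all GRK3 arrays above all GFP arrays, at 12.97, 12.98 and 13.03 on the GRK3 arrays and 12.96, 12.86 and 12.96 on the GFP arrays. The gap between the groups was a few thousandths of a log2 unit, and the difference of 0.067 ± 0.085 (SE) had a limma adjusted p of 0.837. MCM2 had values of 10.85, 10.99 and 11.11 on the GRK3 arrays and 11.19, 11.01 and 11.03 on the GFP arrays, which overlapped. MCM3, MCM4, MCM5 and MCM7 differed by -0.057, -0.022, 0.016 and -0.048, with 95% intervals that all held 0. At the probes used, no interval of the 6 subunits reached below -0.32 or above 0.26. The further probes of MCM4 (difference -0.095) and MCM7 (-0.075 and -0.18) had the same sign as the probe used.

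Genes that turn the loaded ring into an active helicase were near 0 as well. CDC45 had values of 12.07, 11.98 and 12.00 on the GRK3 arrays and 12.06, 11.97 and 12.04 on the GFP arrays, a difference of -0.0074 (95% interval from -0.20 to 0.18). MCM10, which helps to start unwinding, differed by 0.028 at the probe used and by 0.05 at the other. The GINS subunits GINS1, GINS2 and GINS3 differed by -0.059, -0.017 and -0.10. Among these only GINS3 had GRK3 values (10.71, 10.53 and 10.69) below all GFP values (10.81, 10.72 and 10.71), by a margin in the third decimal, with a limma adjusted p of 0.745.

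The clamp, its loader and the single-strand binding protein were the group with the most positive differences, 4 of 6, and 0 of the 6 genes passed (lowest limma adjusted p 0.56). With median scaling RFC4 turned positive too. RPA2, a subunit of the protein that coats single-stranded DNA, had the most positive difference of the 42 tested genes. It had values of 12.90, 12.82 and 12.95 on the GRK3 arrays and 12.88, 12.66 and 12.75 on the GFP arrays. The ranges overlapped through GFP replicate 1, and the difference was 0.13 ± 0.094 (SE), with a limma adjusted p of 0.688. Without GFP replicate 2 it was 0.076. RPA3, a smaller subunit, differed by 0.093. RFC2, a subunit of the clamp loader, differed by 0.10 and by 0.16 at its 2 probes.

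RFC3, another loader subunit, went the other way, with values of 11.76, 11.73 and 11.64 on the GRK3 arrays and 11.81, 12.09 and 11.79 on the GFP arrays. The GRK3 values were all lower, and GFP replicate 2 stood above the rest: the difference of -0.19 ± 0.11 (SE) was -0.0877 without it. The other RFC3 probes differed by -0.041 and -0.17 with overlapping groups. RFC4 had values of 12.65, 12.73 and 12.52 on the GRK3 arrays and 12.61, 12.66 and 12.65 on the GFP arrays, a difference of -0.0049.

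PCNA, the sliding clamp, was read by 3 probes whose signs disagreed. The probe used for the gene had values of 13.94, 13.79 and 13.86 on the GRK3 arrays and 13.77, 13.75 and 13.81 on the GFP arrays, a difference of 0.086 (95% interval from -0.11 to 0.28). The second had values of 8.98, 8.81 and 8.33 on the GRK3 arrays and 8.65, 8.89 and 8.85 on the GFP arrays, a difference of -0.088. GRK3 replicate 3 set that sign, being lowest of the 6 arrays. The third had 7.11, 7.09 and 7.14 on the GRK3 arrays and 7.14, 7.05 and 6.81 on the GFP arrays, a difference of 0.11. All 3 probes had overlapping groups and limma adjusted p-values from 0.751 to 0.89.

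Among polymerases and the enzymes that join Okazaki fragments, POLD1 had the most negative difference. POLD1, the catalytic subunit of polymerase delta, had values of 9.99, 10.35 and 10.37 on the GRK3 arrays, against 10.48, 10.50 and 10.43 on the GFP arrays. The groups did not overlap, and GRK3 replicate 1 lay well below the other GRK3 arrays. The difference of -0.23 ± 0.11 (SE), with a limma adjusted p of 0.484, was -0.11 without that array. FEN1, the flap nuclease, had 13.05, 12.83 and 12.82 on the GRK3 arrays and 12.98, 12.96 and 13.09 on the GFP arrays, a difference of -0.11 with overlap, which was -0.1842 when GRK3 replicate 1 was dropped and -0.07 when GRK3 replicate 3 was. LIG1, the ligase that seals the fragments, differed by -0.086. POLA1 and PRIM1, of the polymerase alpha-primase complex, differed by 0.021 and 0.023, and POLE2, a subunit of polymerase epsilon, by -0.02.

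RRM2, the small subunit of ribonucleotide reductase and the one whose level is known to follow the cell cycle, had the second most negative difference, with wide spread in both groups. RRM2 (chr2:10122568-10211010 on GRCh38.p14) had log2 values of 11.43, 11.20 and 10.91 on the GRK3 arrays, against 11.26, 11.75 and 11.73 on the GFP arrays. The groups overlapped, since GFP replicate 1 lay below GRK3 replicate 1. SDs were 0.26 on the GRK3 arrays and 0.28 on the GFP arrays (n = 3 each). The difference was -0.40 ± 0.16 (SE), with a 95% interval from -0.76 to -0.03 and a limma adjusted p of 0.385. It ran from -0.56 without GFP replicate 1 to -0.26 without GRK3 replicate 3. RRM1, the large subunit of the same enzyme, had 13.24, 13.28 and 13.28 on the GRK3 arrays and 13.11, 13.34 and 13.40 on the GFP arrays, a difference of -0.015.

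TYMS, which makes thymidylate, differed by -0.088 (limma adjusted p = 0.786). UNG, which removes uracil from DNA, had values of 13.75, 13.79 and 13.70 on the GRK3 arrays and 13.87, 13.85 and 13.87 on the GFP arrays at the probe used. The GRK3 values of UNG were all lower, and the difference was -0.12 ± 0.083 (limma adjusted p = 0.673), or -0.0397 with median scaling. Its second probe differed by -0.14 with overlap. At the third, UNG had 7.17, 6.73 and 6.52 on the GRK3 arrays and 6.71, 6.92 and 6.60 on the GFP arrays, a difference of 0.064 in the other direction.

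UHRF1, which brings the maintenance methyltransferase to newly copied DNA, had the lowest adjusted p of the set, 0.21 with limma. It lies at chr19:4903080-4962154 on GRCh38.p14, and its log2 values were 8.09, 8.23 and 8.18 on the GRK3 arrays, against 8.43, 8.78 and 8.45 on the GFP arrays. The groups were apart by more than the range of the GRK3 arrays, and GFP replicate 2 stood above the other GFP arrays. The difference was -0.38 ± 0.11 (SE), 1.30-fold lower, with a 95% interval from -0.63 to -0.13. Without GFP replicate 2 it was -0.27 (limma adjusted p = 0.502), and over all alternatives the adjusted p was 0.131 to 0.502. CHAF1A, the large subunit of the chromatin assembly factor that follows the fork, differed by -0.087. SLBP, which binds the stem-loop of histone mRNAs, differed by 0.077.

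**Figure D4:**
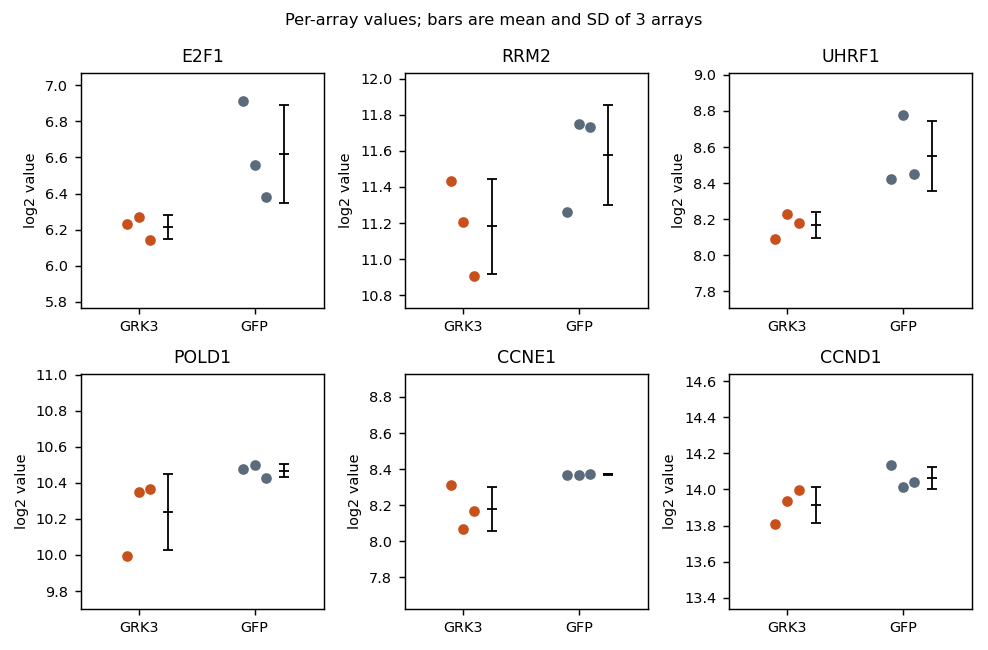
Log2 values of E2F1, RRM2, UHRF1, POLD1, CCNE1 and CCND1 on the 3 GRK3 arrays (left) and the 3 GFP arrays (right) in each panel, with the mean and SD of each group; every y axis spans the same range of 1.3 log2 units. The 6 genes were picked from the members with the largest differences in size. In all but RRM2 the groups do not overlap, and no limma adjusted p among the 6 is below 0.21. Groups without overlap were found for 21.4% of the 42 tested member genes and 16.6% of all tested named genes.

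Inhibitors and regulators outside the set gave no call either, but some of their differences were larger than those of the members. Of 8 tested CDK inhibitors and pocket proteins 0 passed with limma. An unadjusted p under 0.05 was found for 3 of the 8, against 11.3% of all tested named genes. CDKN2A, the locus of the INK4A and ARF inhibitors, had values of 11.51, 11.84 and 12.07 on the GRK3 arrays, against 11.57, 11.00 and 10.65 on the GFP arrays. The groups overlapped through GFP replicate 1, and the difference was 0.74 ± 0.22 (SE) with a limma adjusted p of 0.21. A second CDKN2A probe, with a difference of 0.59 and no overlap, had a limma adjusted p of 0.152. CDKN1B, which encodes the cyclin E-CDK2 inhibitor KIP1, had 9.64, 9.56 and 9.81 on the GRK3 arrays and 9.24, 9.32 and 9.30 on the GFP arrays. All 3 GRK3 values of CDKN1B were higher, and the difference was 0.38 ± 0.095 (limma adjusted p = 0.14). CDKN1A, which encodes the related inhibitor CIP1, had a difference of -0.41 at the probe used (limma adjusted p = 0.327). Another CDKN1A probe was detected on 1 of 3 GRK3 arrays and 3 of 3 GFP arrays, close to background, and no difference is given for it.

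Other E2F and DP factors numbered 8 tested genes, of which 0 passed with limma and 6 were negative. The repressor gene E2F7 had 9.89, 9.50 and 9.45 on the GRK3 arrays and 9.79, 10.15 and 10.05 on the GFP arrays, a difference of -0.39 with overlap (limma adjusted p = 0.309). TFDP1 and E2F5 differed by -0.12 and -0.11. Of 24 further licensing, kinase and fork genes 0 passed with limma and 0 had an unadjusted p under 0.05, with a median difference of -0.0524. The largest in size were PRIM2 (0.29), DNA2 (-0.17) and CLSPN (-0.16), none with a limma adjusted p below 0.626.

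Of 11 tested genes for nucleotides and S-phase chromatin 0 passed with limma. RRM2B, the reductase subunit induced by p53 that serves resting cells, had 9.04, 8.69 and 8.92 on the GRK3 arrays and 8.34, 8.54 and 8.57 on the GFP arrays, a difference of 0.40 without overlap (limma adjusted p = 0.206). ATAD2 differed by -0.23 and MYBL2, at a probe close to background (detection p from 0.0194 to 0.0388), by -0.20. The 12 G2/M markers had a median of -0.0294 with 0 calls by limma and 0 unadjusted p under 0.05. MKI67 differed by 0.25, BIRC5 by -0.22 and TPX2 by -0.20. The MKI67 probe stood close to background, with detection p-values from 0.0162 to 0.0291. Among inputs to G1, FOS differed by 0.28, MAX by -0.16 and MYC by -0.093, and 0 of the 4 tested genes passed with limma. The other tested MAX probes disagreed in sign, with differences of -0.094, 0.091 and 0.02.

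**Figure D5:**
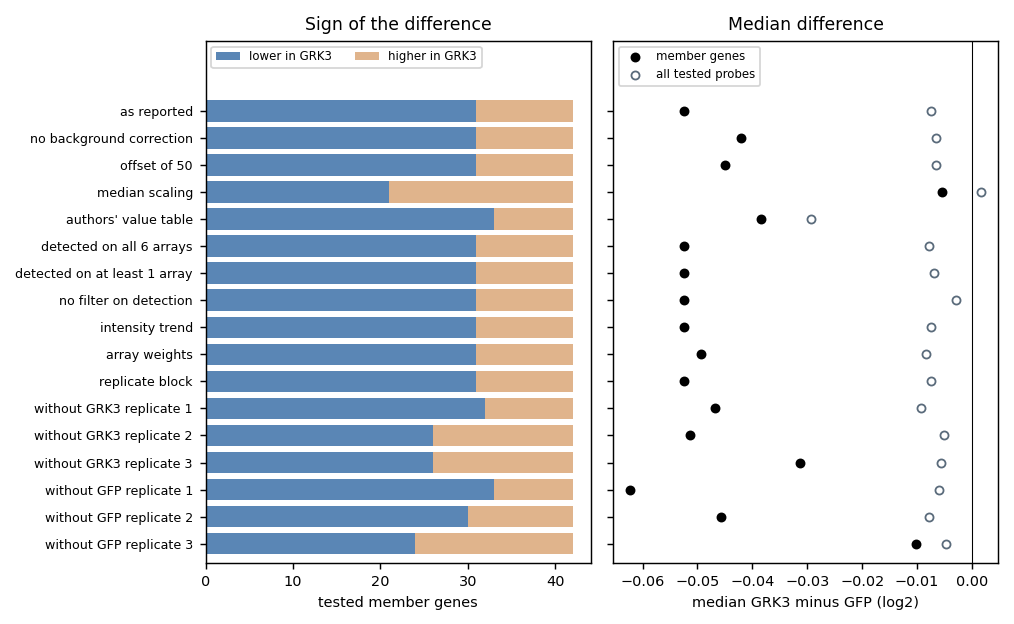
For the values as reported and each alternative (rows), the left panel counts tested member genes with a negative (blue) or positive (tan) GRK3 minus GFP difference, and the right panel gives the median difference on the log2 scale over the member genes (filled) and over all tested probes (open). The split is 31 to 11 as reported, 21 to 21 with median scaling, and 24 to 18 without GFP replicate 3. It is 33 to 9 with the authors' value table and without GFP replicate 1.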

How the data were processed

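The authors deposited a table of average bead intensity per probe on a linear scale, not normalised per the file headers, beside a detection p-value for every probe in the same deposited table. No label or header used here names the software. Another deposited table holds the same intensity times 1 factor per array, found by comparison, and served as an alternative. The members, gene lists, tests and alternatives were chosen with earlier results of these data known.

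From these, values were background-corrected from the detection p-values, quantile-normalised and log2-transformed with neqc (offset 16) of limma 3.58.1 in R 4.3.3. Probes detected (p under 0.05) on at least 3 of 6 arrays were fitted across all 14130 with lmFit and eBayes, two-sided, no covariate, with Benjamini-Hochberg adjustment over all of them. Differences are GRK3 minus GFP. A gene with several tested probes is represented by the one with the highest mean over the 6 arrays. Of 24526 probes 21834 have 1 gene symbol, 2692 none and 0 several, and 0 symbols needed updating through the Entrez identifier.

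By the rule for names, values on each array are given for the cyclins, CDKs and E2Fs, the 10 members with the largest differences in size, the 4 with the smallest, and those whose probes differ in sign. From each other list, up to 3 genes with the largest differences are named. Other values were singled out after they were seen. The fit was tested on simulated data. The number of arrays limits the precision. Alternatives left out the background correction, changed the offset to 50, scaled by medians, used the other table, set 3 other detection filters, let the variance follow intensity, weighted the arrays, blocked on the replicate number, dropped single arrays, or averaged a gene's probes. The labels and files name no batch.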

Additional observations from a re-analysis of the deposited data

How the results depend on the processing

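No member probe passed in any of the 16 alternatives fitted probe by probe, and the lowest adjusted p of a member gene in any of them was 0.131 with limma. In the 16 alternatives 24 of the 42 genes kept their sign, 19 of them negative and 5 positive. The median difference of -0.0525 over the members was -0.0616 with the mean of a gene's probes, -0.0055 with median scaling, and ran from -0.0622 to -0.0102 with 1 array left out, the last without GFP replicate 3. The count of 81 probes over the whole array was 134 without background correction, 122 with an offset of 50, 23 with no detection filter, 136 with an intensity trend, 239 with array weights, and 23 to 183 with 1 array left out: 183, 23 and 35 when GRK3 replicates 1, 2 and 3 were dropped in turn, and 39, 24 and 30 when GFP replicates 1, 2 and 3 were. With the replicate block it was 11, and the block gave 0 member calls as well. Deviations of same-numbered arrays from their group means correlated at -0.407, 0.178 and -0.415. Those of GRK3 replicate 1 and GFP replicate 3 correlated at 0.514, and those of GRK3 replicate 3 and GFP replicate 1 at 0.434. Deviations from a mean of 3 arrays constrain one another, so these values cannot settle whether samples were paired. A block on pairs other than the same-numbered ones was not fitted. The log2 values of GRK3 replicate 1 correlated with GFP replicate 3 at 0.9951, and with GRK3 replicates 2 and 3 at 0.9946 and 0.9935.

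Signs turned for differences of up to 0.0928 in size as reported (RPA3), and the cause was not tested. With median scaling the differences were 0.0105 for CDK2, 0.0393 for ORC6, 0.0234 for MCM3, 0.0361 for MCM4, 0.0346 for MCM7, 0.0073 for CDC45, 0.0517 for GINS2, 0.014 for RFC4, 0.0069 for POLE2 and 0.032 for RRM1. With the authors' value table they were -0.0306 for MCM5, -0.0053 for MCM10, 0.0073 for GINS2 and -0.0252 for POLA1, and with array weights 0.0004 for RFC4 and -0.0453 for PRIM1. With 1 array left out, the range held both signs for CDC45 (-0.0365 to 0.0119), CDK2 (-0.0673 to 0.0246), CDK4 (-0.0214 to 0.0237), GINS1 (-0.1401 to 0.0335), GINS2 (-0.1048 to 0.0686), MCM4 (-0.0535 to 0.0193), MCM5 (-0.0464 to 0.0803), MCM7 (-0.0953 to 0.0175), ORC1 (-0.1266 to 0.0668), ORC6 (-0.0636 to 0.0118), POLE2 (-0.1145 to 0.0652), PRIM1 (-0.0811 to 0.0879), RFC4 (-0.0556 to 0.0525), RPA3 (-0.0069 to 0.1526) and RRM1 (-0.1034 to 0.0446), and for MCM10 it ran from 0 to 0.0596. E2F1 was near background on every array, and its difference of -0.40 as reported was -0.25 without background correction.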
